A study of Homo sapiens with 4 samples.

Results

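The 10 genes described here encode receptors of selective autophagy (SQSTM1, CALCOCO2, OPTN, NBR1 and TAX1BP1), ubiquitin-like proteins of the ATG8 family (MAP1LC3B, GABARAP, GABARAPL1 and GABARAPL2) and ATG3, the enzyme that couples ATG8 proteins to lipid. They were taken by gene symbol from a list of names, drawn up with earlier results of these data known, and all 10 were found among the 20322 targets of the deposited table. RNA was sequenced from 4 libraries of HT-29, an established human colorectal adenocarcinoma cell line. In all 4 IGF2BP1 had been targeted with CRISPR/Cas9, the gene that encodes IMP1, a protein of fetal tissues and tumours that binds mRNAs. The 2 null libraries are from cells that carry only the empty PiggyBac construct (PB*-empty). The 2 IMP1-OE libraries are from cells given the construct PB*-FLAG-IMP1-short UTR, which returns FLAG-tagged IMP1 on the null background. The labels give a mouse liver metastasis as the origin of the lines, and all cells grew under puromycin. The comparison asks which RNA levels differ when IMP1 is present again. Nothing in the labels says that replicates were separate clones or cultures beyond the mention of cell lines of each genotype, so p-values measure the spread between these libraries, which may be technical.

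Autophagy encloses cytoplasm in a double membrane, the autophagosome, and delivers it to lysosomes. ATG8 proteins are cut by ATG4 proteases, activated by ATG7, passed to ATG3 and joined to phosphatidylethanolamine on the growing membrane. Receptors bind marked cargo with one end, often through ubiquitin, and ATG8 proteins with a short LC3-interacting stretch. Because SQSTM1 protein is itself degraded by autophagy, its protein level is a common gauge of flux. RNA levels, the only quantity measured here, do not give protein level or flux.

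Depth was 9343429 to 10594813 estimated counts per library. The single target ARSI took 17.8% and 17.3% of the counts in null and 8.01% and 12.4% in IMP1-OE. IGF2BP1 stood at 3.62 and 1.75 CPM (the count relative to library size after TMM scaling) in null and at 6.76 and 10.6 CPM in IMP1-OE, an order that follows the labels, with an edgeR adjusted p of 0.453. Of 11 epithelial markers, KRT8, KRT18, EPCAM and others were abundant (21040 to 28799 CPM summed per library), while the intestinal factors CDX1 and CDX2 were at most 0.285 CPM outside null replicate 1. In that library CDX2 was at 4.60 CPM, and CEACAM5 at 59.3 CPM against 3.83 to 10.2 CPM, LGALS4 at 2546 CPM against 1183 to 1413 CPM and LYZ at 2798 CPM against 1378 to 1884 CPM in the other libraries. Summed fibroblast markers were at 2.47 to 13.1 CPM and endothelial markers at 2.35 to 4.09 CPM. Of 7 immune markers, CD3E and CD2 had no count and LYZ supplied most of the sum of 1447 to 2834 CPM. CD14 was at 18.8 and 52.3 CPM in null and 14.9 and 8.84 CPM in IMP1-OE, and CD68 at 17.0 and 16.3 CPM against 12.6 and 6.08 CPM. Both were lower in IMP1-OE without overlap, like 4 of the receptors below, and their part in those differences was not tested. Null replicate 2 stood apart by interferon-stimulated genes. Their summed level over 20 genes was 8770 CPM there, against 1251 CPM in the other null library and 985 and 1266 CPM in IMP1-OE. Of the 20, 19 had a higher level there than in the other null library, the exception being ISG20. All 20 had a fitted level lower in IMP1-OE, 16 with an unadjusted edgeR p under 0.05 and 0 with an adjusted one, and the authors' deposited table calls 3. For 9 of the 20 both null libraries lay above both IMP1-OE libraries, among them ISG20 (49.6 and 30.9 CPM against 10.3 and 12.5 CPM) and OASL (34.8 and 71.6 CPM against 14.2 and 20.2 CPM). Without null replicate 2, 14 of the 20 were still lower, 4 with an unadjusted p under 0.05 and 1 with an edgeR adjusted p under 0.05, and their median log2 fold change went from -2.43 to -0.20. The part of the interferon-stimulated genes in the differences below was not tested.

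All 10 genes passed the low-count filter with the 12113 genes tested. Every one of the 5 receptors had a lower mean in IMP1-OE, and for 4 of them the groups did not overlap. The 4 ATG8 genes and ATG3 had fitted log2 differences from -0.09 to 0.20. At an unadjusted edgeR p under 0.05, 4 of the 10 genes were lower in IMP1-OE and 0 were higher, where 5.84% of all genes tested were lower at that threshold and 4.34% higher. Groups that did not overlap with IMP1-OE lower were seen for 4 of the 10, against 21.9% of all genes tested, and with IMP1-OE higher for 1 of the 10, against 21.3%. None of the 10 passed an edgeR adjusted p of 0.05, and neither did any of the 12113 genes (0%; 1233 genes, or 10.2%, had an unadjusted p under 0.05). DESeq2 on the same counts called 164 genes, of which SQSTM1 was the only member. The authors' deposited table, which calls the same 164, holds an adjusted p for 12836 genes. With limma-voom, 1 gene and 0 members were called. In these bulk libraries, fewer cells with a transcript and less of it per cell cannot be told apart.

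**Figure D1:**
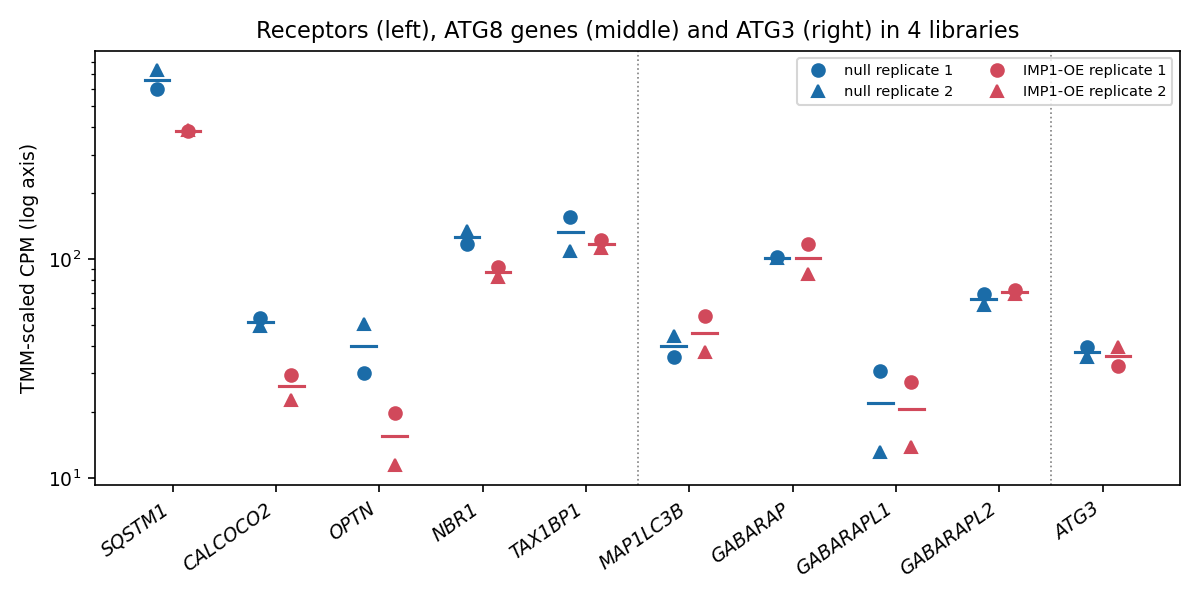
Level of each gene in TMM-scaled CPM (log axis) in each of the 4 libraries, with null in blue and IMP1-OE in red, circles for replicate 1, triangles for replicate 2 and short lines for group means. The blue points of SQSTM1, CALCOCO2, OPTN and NBR1 lie above both red points, while those of the other genes overlap except for GABARAPL2, whose red points lie slightly above.

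SQSTM1 encodes p62, a ubiquitin-binding scaffold that gathers cargo into condensates and also holds KEAP1, the inhibitor of the transcription factor NRF2. Its level was 597 and 729 CPM in the null libraries and 384 and 388 CPM in the IMP1-OE libraries. Both null values lay well above the IMP1-OE values, which differed from each other by little. The fitted level was 1.71-fold lower in IMP1-OE, with a log2 fold change of -0.78 (SE 0.18, 95% interval -1.21 to -0.34), and an edgeR adjusted p of 0.433 (0.00471 before adjustment over the genes). In the authors' deposited table SQSTM1 has a log2 fold change of -0.66 and an adjusted p of 0.0193, and it is the only one of the 10 genes called there, where 0.849% of genes with an adjusted p were called as lower. With DESeq2 its log2 fold change was -0.90 without null replicate 1, -0.63 without null replicate 2 and -0.77 without either IMP1-OE library. DESeq2 called SQSTM1 under the omissions of a null library only. The spread then comes from the 2 IMP1-OE libraries, which nearly coincide for SQSTM1, and more genes were called in all, as given at the end. With edgeR, SQSTM1 was called without null replicate 1, at a log2 fold change of -0.92, and without no other library.

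CALCOCO2, also known as NDP52, is a receptor for bacteria and damaged mitochondria. It was at 53.8 and 49.4 CPM in null and at 29.6 and 22.7 CPM in IMP1-OE. The groups were separate, and the gap between them was wider than the spread within either. Its fitted level was 1.97-fold lower in IMP1-OE (log2 fold change -0.98, SE 0.22, edgeR adjusted p = 0.433, unadjusted p = 0.00442), and the authors' deposited table gives -0.74 with an adjusted p of 0.0820.

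OPTN encodes optineurin, a ubiquitin-binding receptor that works with the kinase TBK1. Its counts gave 30.03 and 50.3 CPM in null and 19.7 and 11.4 CPM in IMP1-OE. Both groups were spread, with null replicate 2 the highest and IMP1-OE replicate 2 the lowest, but they did not overlap. The fitted difference was the largest among the 10 genes, 2.58-fold lower in IMP1-OE, and also had the widest interval of the receptors (log2 fold change -1.37, 95% interval -2.30 to -0.44, edgeR adjusted p = 0.435). Null replicate 2, where OPTN was highest, as were SQSTM1 and NBR1 but not CALCOCO2, is also the library with 8770 CPM of interferon-stimulated genes. Without it the log2 fold change of OPTN was -0.95, and without null replicate 1 it was -1.69. Groups that are separate over all libraries stay separate under any omission, so the part of null replicate 2 is not settled by their separation. The low-count filter was also redone without null replicate 1, an alternative chosen after seeing the data. The edgeR log2 fold changes were then -0.91 for SQSTM1, -0.91 for CALCOCO2, -1.68 for OPTN and -0.61 for NBR1. Leaving out null replicate 1, the library with the higher CDX2 and CEACAM5, was the only omission under which edgeR called a member. It was also the omission under which edgeR called the most genes in all, as given at the end.

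NBR1, a larger relative of SQSTM1 in domain layout that helps it gather ubiquitinated cargo, was at 117 and 135 CPM in null. In IMP1-OE it was at 91.7 and 83.2 CPM, below both null values. The fitted level was 1.44-fold lower (log2 fold change -0.53, SE 0.18, unadjusted p = 0.0256, edgeR adjusted p = 0.454). The authors' deposited table gives -0.30 and DESeq2 on the same counts -0.52, both with an adjusted p of 0.367. TAX1BP1, a paralog of CALCOCO2 that clears protein aggregates, had overlapping groups. Its null values were 156 and 109 CPM, with both IMP1-OE libraries in between at 122 and 113 CPM. Its interval of -0.73 to 0.37 log2 units takes in both no difference and the fitted value of NBR1, and its sign turned to 0.11 when null replicate 1 was left out.

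The 4 receptors with separate groups were also fitted with each library left out. Without null replicate 2, 9 of the interferon-stimulated genes were still higher in null than in both IMP1-OE libraries. The edgeR log2 fold changes there were -0.63 for SQSTM1, -1.04 for CALCOCO2, -0.95 for OPTN and -0.42 for NBR1. TAX1BP1, at -0.18 over all libraries, was at -0.42 there. The 4 receptors had an unadjusted edgeR p under 0.05 over all libraries, and fewer kept one when an IMP1-OE library was left out. Without IMP1-OE replicate 1, CALCOCO2 and OPTN were left at an unadjusted p under 0.05, and without IMP1-OE replicate 2, 0 of the 10 genes were, although the fitted values of the 4 stayed between -1.01 and -0.44. SQSTM1, CALCOCO2, OPTN and NBR1 were lower in IMP1-OE under each of the 21 alternatives computed, 9 of them chosen after seeing the data. Both null values of each gene lay above both IMP1-OE values, so omitting a library could hardly turn the sign. The other alternatives used the same 4 libraries, so this count is a description.

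**Figure D2:**
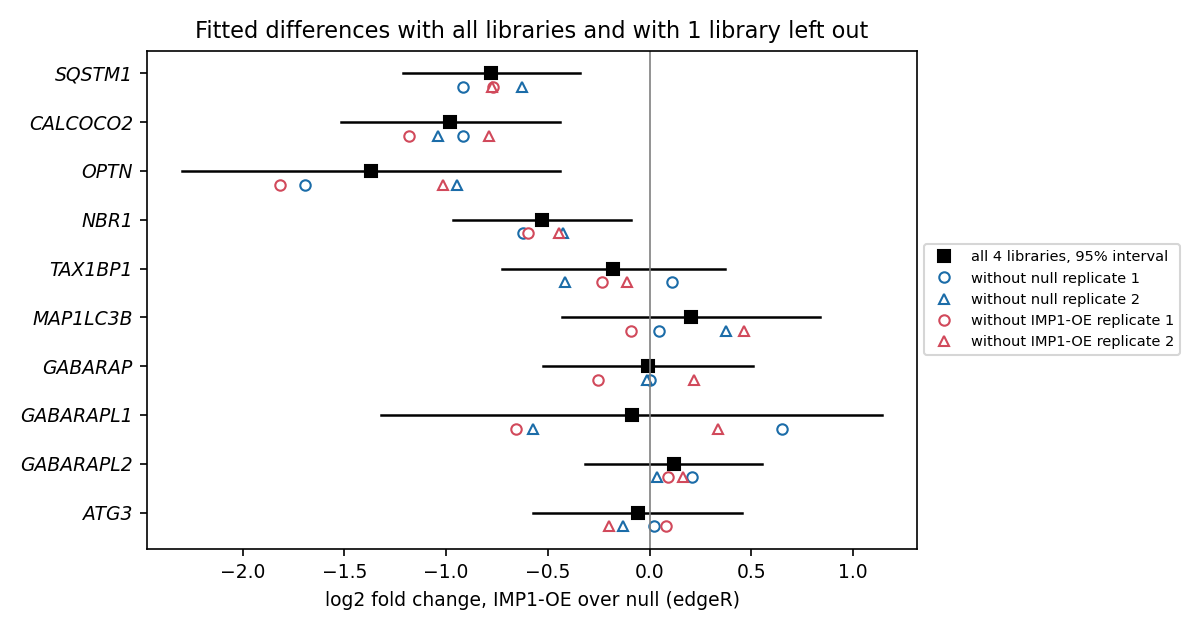
Fitted log2 fold change of each gene (IMP1-OE over null) with all 4 libraries (black squares, lines for 95% intervals) and with each library left out in turn (open symbols). The intervals of SQSTM1, CALCOCO2, OPTN and NBR1 lie below 0 and their open symbols stay there, while those of TAX1BP1, MAP1LC3B, GABARAP, GABARAPL1 and ATG3 fall on both sides of 0.

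The ATG8 genes gave no such separation. MAP1LC3B, the source of the LC3 marker used to count autophagosomes, was at 35.5 and 44.6 CPM in null and at 54.7 and 37.5 CPM in IMP1-OE. Its highest value was in IMP1-OE replicate 1 and the groups overlapped (log2 fold change 0.20, 95% interval -0.43 to 0.84). GABARAP, which serves late steps of autophagosome closure and fusion, was at 102 and 101 CPM in null and at 117 and 85.2 CPM in IMP1-OE. The null values nearly coincided and lay between the IMP1-OE values, with an interval of -0.52 to 0.51. GABARAPL2, also called GATE-16 and a factor of Golgi traffic too, was at 69.2 and 61.5 CPM in null and at 72.5 and 69.5 CPM in IMP1-OE. The groups just missed each other, with a log2 difference of 0.12 (interval -0.32 to 0.55, edgeR adjusted p = 0.858).

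GABARAPL1, a close relative of GABARAP, varied within the groups more than between them. Replicates 1 and 2 of null gave 30.7 and 13.1 CPM, and those of IMP1-OE 27.4 and 13.9 CPM. The library numbered 1 was thus the higher in both groups, and the interval for the group difference was the widest of the 10 genes, from -1.32 to 1.14. Leaving out 1 library moved its log2 fold change from -0.66 to 0.65. ATG3 was at 39.5 and 35.6 CPM in null and at 32.5 and 39.6 CPM in IMP1-OE, a difference of -0.06 log2 units with an interval of -0.57 to 0.45. The signs of GABARAP, GABARAPL1 and ATG3 were not fixed, since all 3 turned positive when libraries were scaled by their totals only. The intervals of MAP1LC3B, GABARAPL1, GABARAPL2 and ATG3 reach past the fitted size of NBR1's difference in at least 1 direction and that of GABARAP ends just short of it, so equal levels are not shown.

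Near-identical copies bear on MAP1LC3B and GABARAPL1. MAP1LC3B2, a near-identical copy of the MAP1LC3B coding sequence, was at 28.3 and 22.0 CPM in null and at 17.0 and 17.7 CPM in IMP1-OE, on the opposite side from MAP1LC3B. Short fragments from the shared sequence can be given to either target, so the 2 values are uncertain apart. Their sum was 63.8 and 66.6 CPM in null and 71.8 and 55.2 CPM in IMP1-OE, which overlapped, and a fit on the summed counts gave a log2 fold change of -0.04. MAP1LC3A was at 5.58 and 5.69 CPM in null and at 2.57 and 2.85 CPM in IMP1-OE (log2 fold change -1.05, unadjusted p = 0.0789, edgeR adjusted p = 0.529). MAP1LC3C had at most 6 counts in a library and was not tested. GABARAPL3, a near-identical relative of GABARAPL1, is not analysed here.

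Ratios within a library do not depend on scaling between libraries. Summed over genes, the 5 receptors had 4.02 and 4.87 times the counts of the 4 ATG8 genes in the null libraries and 2.38 and 3.001 times in the IMP1-OE libraries. The lowest null ratio was above the highest IMP1-OE ratio. SQSTM1 supplied most of the receptor counts, at 62.5% (95% Wilson interval 61.6 to 63.5) and 68.0% (67.1 to 68.9) in null and 59.4% (58.2 to 60.6) and 62.8% (61.6 to 64.0) in IMP1-OE, intervals that cover counting error only. These shares overlapped between the groups. With SQSTM1 left out, the ratio was still 1.51 and 1.56 in null against 0.968 and 1.12 in IMP1-OE. An exact two-sided permutation test of 2 libraries against 2 cannot give a p under 0.333, so these ratios are a description.

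**Figure D3:**
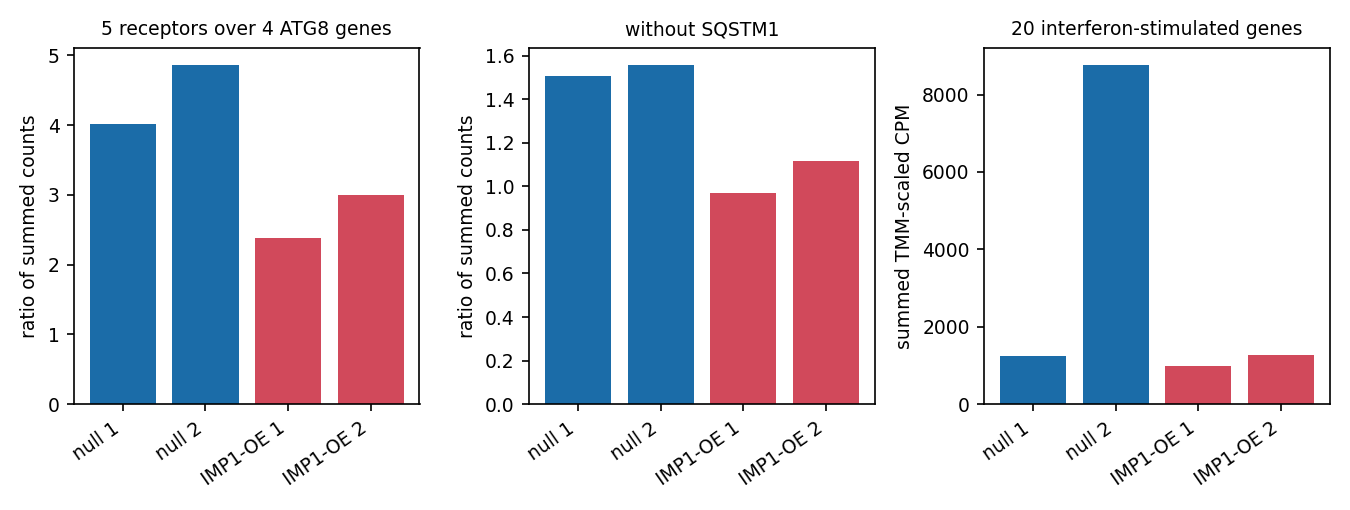
Counts of the 5 receptors over those of the 4 ATG8 genes in each library (left), the same without SQSTM1 (middle) and the summed CPM of 20 interferon-stimulated genes (right), with null in blue and IMP1-OE in red. Both null bars exceed both IMP1-OE bars in the ratio panels, whereas the right panel has 1 tall bar, null replicate 2 at 8770 CPM.

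Per kilobase of effective target length, which allows levels to be set between genes, SQSTM1 led in every library, at 235 ± 33.2 CPM per kilobase in null and 137 ± 1.01 in IMP1-OE (mean ± SD, n = 2). GABARAP (78.3 ± 0.550 in null and 77.9 ± 17.3 in IMP1-OE) and GABARAPL2 (68.7 ± 5.76 and 74.7 ± 2.25) came next, and their ranges over the 4 libraries overlapped. TAX1BP1 followed at 50.9 ± 12.9 and 45.0 ± 2.44, apart from its neighbours on either side. NBR1 stood at 27.5 ± 2.67 in null and 19.1 ± 1.32 in IMP1-OE, below ATG3 (24.3 ± 1.81 and 23.3 ± 3.29) in 3 of the 4 libraries. The lowest levels as assigned to each target belonged to OPTN, CALCOCO2, MAP1LC3B and GABARAPL1, at 11.8 to 16.5 in null, and each overlapped the next in that order. In IMP1-OE, CALCOCO2 was at 7.24 ± 1.35 and OPTN at 6.37 ± 2.40, below the mean of MAP1LC3B at 14.8 ± 3.90. MAP1LC3B2, the near-identical copy of MAP1LC3B, was higher, at 31.6 ± 5.58 in null and 21.8 ± 0.575 in IMP1-OE. Fragments of the shared sequence can be given to either target, so the place of MAP1LC3B in this order is uncertain. Each target is 1 transcript per gene, so an unlisted isoform would change these levels.

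Promoter windows from RefSeq (GRCh38.p14, 250 bases before to 50 after each transcript start) were matched for all 10 genes, in 15 windows. They were searched on both strands for 10 motifs of factors tied to autophagy, stress or interferon, chosen with the results known. The antioxidant response element core TGACNNNGC, bound by NRF2, was in the windows of CALCOCO2 and MAP1LC3B, against 13.3% of all 35116 windows. The E-box CACGTG was in that of ATG3 only, against 7.26% of all windows, and 1 of its 2 matches there overlaps the longer TCACGTGA read by TFEB, held by 0.980% of all windows. The cyclic AMP response element TGACGTCA was in that of GABARAPL1 only, against 1.85%, and the interferon-gamma-activated site TTCNNNGAA in that of GABARAPL2 only, against 7.66%. The loose NF-kB pattern (GGGA, any 4 bases, CC) was in 7 of the 15 windows, those of SQSTM1, CALCOCO2, OPTN, MAP1LC3B, GABARAP and ATG3, against 25.6% of all windows. It was thus shared by 3 of the 4 receptors with separate groups, and also by 3 genes whose groups overlapped. The core of the interferon-stimulated response element (GAAA, any 2 bases, GAAA; 3.57% of all windows), the amino acid response element TGATGCAA (0.866%), the AP-1 site TGAGTCA (4.95%) and its looser form TGANTCA (7.71%) were in 0 of the 15. One stretch with a match is shown for each of 6 genes, as an example from receptors, ATG8 genes and ATG3. The other matches are not shown. The matching letters are in capitals, 5′ to 3′ on the strand of the gene.
SQSTM1, NF-kB pattern (chr5:179820892-179820921, plus strand): ggctgcgaccGGGACGGCCCgttttccgcc
OPTN, NF-kB pattern (chr10:13100061-13100089, plus strand): gcggggcccGGGAAATTCCCcggcgcggg
CALCOCO2, antioxidant element (chr17:48830896-48830924, plus strand): cgctcctgggGCCCGGTCAcctgaacact
MAP1LC3B, antioxidant element (chr16:87392280-87392308, plus strand): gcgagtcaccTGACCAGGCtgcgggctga
ATG3, E-box (chr3:112561952-112561980, minus strand): CACGTGccgggagagtctagtgtCACGTG
GABARAPL1, cyclic AMP element (chr12:10212836-10212865, plus strand): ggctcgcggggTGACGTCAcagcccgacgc
In CALCOCO2 the element reads on the reverse strand. NBR1 and TAX1BP1 held none of the 10 motifs in their windows. A match of letters is not a bound site, and elements farther from the start were not searched.

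Among the 5 genes whose centred log2 levels over the 4 libraries lay nearest to those of SQSTM1, B4GALT1 was at 78.3 and 90.9 CPM in null and at 49.8 and 49.6 CPM in IMP1-OE. VAT1 was at 147 and 192 CPM against 102 and 103 CPM. The others were CABLES1, LNP1 and C19orf44, all 3 at low levels of up to 16.2 CPM.

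The rest of the pathway, taken from lists of other autophagy genes, had 87 genes tested. Of these, 56 were lower and 31 higher in IMP1-OE, where 51.9% of all genes tested were lower. Their median log2 fold change was -0.17 beside -0.02 for all genes tested and -0.13 for the 10 genes above. At an unadjusted p under 0.05, 8 of the 87 were lower and 0 higher, beside 5.84% and 4.34% of all genes tested. Of the 87, 0 passed an edgeR adjusted p of 0.05, and the authors' deposited table calls 0. The other selective receptors had the lowest median of the larger lists, -0.37, with 12 of 15 lower. BNIP3L, a mitophagy receptor also called NIX, was at 24.0 and 30.9 CPM in null and at 10.7 and 13.5 CPM in IMP1-OE, 2.27-fold lower (unadjusted p = 0.00540, edgeR adjusted p = 0.433). TEX264, a receptor for the endoplasmic reticulum, was at 21.8 and 28.3 CPM against 14.0 and 16.3 CPM. For both genes, named for their small p, the groups were separate. Groups that did not overlap with IMP1-OE lower were seen for 8 of the 15 and for 32 of the 87, against 21.9% of all genes tested.

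The ATG8 conjugation and processing genes had a median of 0.00 over 9 genes, 5 lower and 4 higher, and none had an unadjusted p under 0.05. ATG4C, a protease of ATG8 proteins, had the smallest p there, at 4.30 and 2.41 CPM in null and 6.38 and 5.89 CPM in IMP1-OE. Of 19 genes of initiation and membrane supply, 10 were lower and WDR45, a lipid-binding factor of early autophagosomes, was at 42.5 and 39.2 CPM against 26.4 and 25.0 CPM (unadjusted p = 0.0141). Among 14 fusion genes 10 were lower, with VPS41 at 58.6 and 68.2 CPM against 42.9 and 45.2 CPM and VPS39 at 58.5 and 70.4 CPM against 48.9 and 40.1 CPM, both parts of the tethering complex HOPS. Of 19 lysosomal and TFEB family genes 11 were lower. LAMP2, a lysosomal membrane protein, was at 155 and 141 CPM against 112 and 92.9 CPM. CTSB, the protease cathepsin B, was at 207 and 331 CPM against 173 and 141 CPM, and ATP6V1B2, a subunit of the proton pump, at 30.03 and 41.7 CPM against 22.3 and 22.5 CPM. CTSB was highest in null replicate 2.

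Partners of the receptors were closer to level. TBK1, the kinase of OPTN, was at 30.7 and 28.9 CPM in null and at 24.5 and 31.6 CPM in IMP1-OE. KEAP1, which SQSTM1 binds, was at 66.9 and 82.0 CPM against 71.9 and 70.7 CPM, and NFE2L2, the gene of NRF2, at 88.6 and 90.3 CPM against 70.2 and 76.9 CPM. These genes were picked from the list of 9 for their ties to the receptors after the values were seen. The list had 6 lower and 3 higher, a median of -0.09 and 0 genes with an unadjusted p under 0.05.

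**Figure D4:**
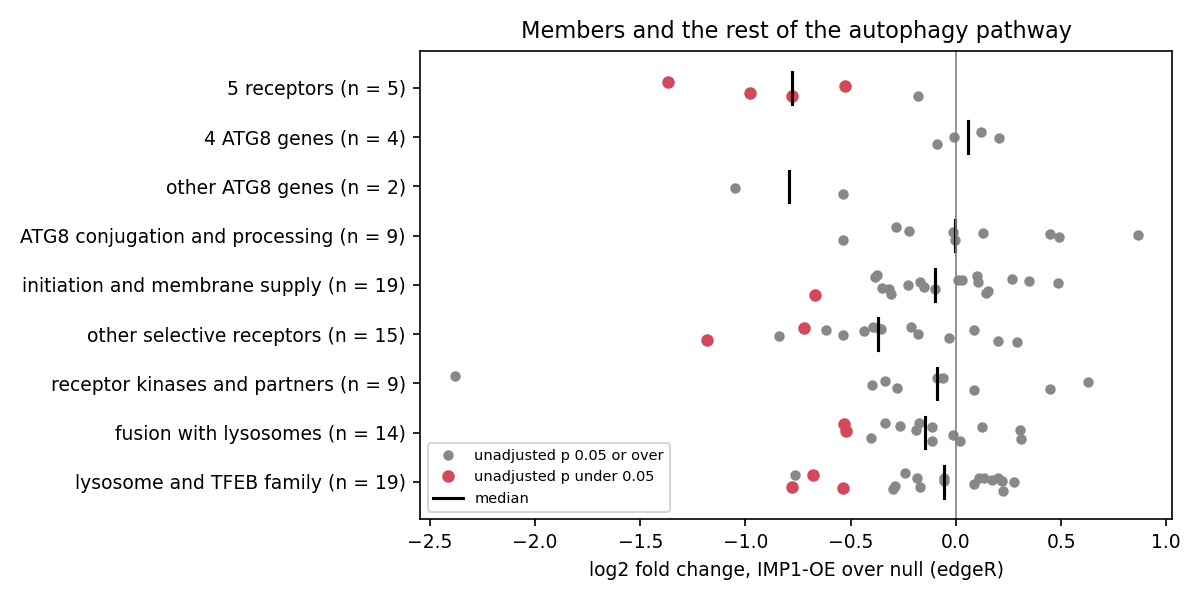
Fitted log2 fold change (IMP1-OE over null) of each tested gene in the receptor and ATG8 groups and in 7 lists of the rest of the pathway, with red points for an unadjusted p under 0.05 and black lines for medians. The receptors have a median of -0.78 and the ATG8 genes 0.06, and all red points lie below 0.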

How the data were processed

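The table deposited by the authors holds kallisto's estimated counts (per the file headers) for 1 transcript of each of 20322 genes. The submitters' processing notes name kallisto 0.46.2, HISAT2 2.1.0, fastp 0.21, cutadapt 3.5 and DESeq, with no roles. For the build, the annotation release and any use of molecular identifiers, nothing is given in the sources used here. All counts were whole as deposited. The table's 2 further sample names match no label and were not used. Members and lists were chosen with earlier results of these data known. Counts were tested with edgeR 4.0.16 (R 4.3.3): TMM scaling, the default low-count filter, the quasi-likelihood test of IMP1-OE against null and Benjamini-Hochberg adjustment over 12113 genes, with 0.05 as threshold. The standard error is the fitted log2 fold change divided by the root of the F statistic. The authors' deposited comparison gives log2 fold changes and p-values, and DESeq is the only test tool in the submitters' notes. DESeq2 1.42.0, limma 3.58.1 (voom), other scalings, no filter, a replicate block and omission of each library or of ARSI were alternatives. Omissions kept the 12113 genes of the full fit, so that 1 choice changed at a time. Omissions with the filter redone or with DESeq2, and the sum of MAP1LC3B and MAP1LC3B2, were added after seeing the data. DESeq2 1.42.0 called the same 164 genes as the deposited table, with equal signs. The deposited log2 fold changes of most members lie nearer 0 than the DESeq2 1.42.0 estimates, and no shrinkage is stated. The p-values of the receptors are the same in both, so the smaller deposited values are not a weaker test result. Effective length gave levels per kilobase. The steps were also run on simulated counts, with larger differences than those fitted for the members. That run therefore does not bear on whether differences of the members' size are detected. Named pathway genes have an unadjusted p under 0.05 (up to 5 per list by smallest p) or else the smallest p of their list. One gene that this rule names is not reported here. Lists were described by counts and medians.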

Additional observations from a re-analysis of the deposited data

How the results depend on the processing

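The edgeR test called 0 genes and 0 of the 10 members, and 4 members and 8 other pathway genes had an unadjusted p under 0.05. DESeq2 called 164 genes and 1 member (SQSTM1), limma-voom 1 gene, edgeR with no low-count filter 22 genes and edgeR with the replicate number as a block 15 genes, the last 3 without a member. With library totals as the only scaling, 3 other pathway genes and 3 members had an unadjusted p under 0.05 (NBR1 was at 0.0567), and the median of all genes was 0.06 in place of -0.02. The same replicate number in both groups was not a stated pairing. The deviations of same-numbered libraries correlated over genes with r = 0.12, and no member's call changed with the replicate block. The cause of these differences was not tested.

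Leaving out 1 library at a time, with edgeR or, as alternatives chosen after seeing the data, with edgeR and the low-count filter redone or with DESeq2, gave 0 to 1510 called genes, 0 to 4 called members, 0 to 5 members with an unadjusted p under 0.05 and 1 to 19 other pathway genes with one. With edgeR on the 12113 genes of the full fit, kept so that 1 choice changed at a time, 783 genes were called without null replicate 1, 48 without null replicate 2 and 0 without either IMP1-OE library. With the filter redone, the counts were 1510, 21, 0 and 0, and with DESeq2 1025, 263, 27 and 33. Without null replicate 1, SQSTM1 and OPTN were called by edgeR and DESeq2, and CALCOCO2 and NBR1 also with the filter redone. Without null replicate 2, SQSTM1 was called by DESeq2 only. A group left with 1 library is assumed to vary like the other.

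Directions of the genes near 0 were not stable. Over these omissions the log2 fold change ran from -0.42 to 0.12 for TAX1BP1, -0.10 to 0.46 for MAP1LC3B, -0.26 to 0.22 for GABARAP, -0.67 to 0.67 for GABARAPL1 and -0.20 to 0.080 for ATG3. With MAP1LC3B2 added, also chosen after seeing the data, MAP1LC3B was at -0.038. GABARAP was at 0.0079 with upper-quartile scaling and 0.077 with library totals only, where GABARAPL1 was at 0.0042 and ATG3 at 0.018. The lowest count of a member in a library was 120 (OPTN and GABARAPL1), and SQSTM1 had 4040 or more.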
